A study of Mus musculus with 14 samples.

Results

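The genes of the proteasome subunits were examined in the testis RNA of Adad2 mutant and wild-type mice. The set held every protein-coding gene of the GENCODE M21 annotation whose symbol was Psma, Psmb, Psmc or Psmd followed by digits alone, and 39 of the 53239 gene symbols in the tables, of which 21891 were protein coding, met this rule. The rule used names only and no measured value. It took 19 genes of the core particle (8 Psma and 11 Psmb) and 20 genes of the regulatory cap and its assembly (6 Psmc and 14 Psmd). The testes came from 21-day-old C57BL/6 mice, 4 of them homozygous for the mutant allele (Adad2M/M) and 3 wild type (Adad2+/+). Mice of both genotypes also carried 1 Rpl22-HA allele (RiboTag), which adds an HA tag to a protein of the large ribosomal subunit, and the Stra8-iCre transgene, which is active in differentiating male germ cells and so limits the tag to those cells and their descendants. Each animal gave 2 libraries, 1 of the RNA bound to HA-tagged ribosomes (IP) and 1 of total RNA (input), which makes 14 libraries. The input holds all cells of the testis and the IP the germ cells with the tag, so every ratio of IP to input compares both a bound with a total RNA and a part of the cells with all of them.

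The proteasome is the protease that degrades proteins tagged with ubiquitin. Its core is a barrel of stacked alpha and beta rings, with the alpha rings forming the gate and 3 of the beta subunits, Psmb5, Psmb6 and Psmb7, holding the catalytic sites. The cap at either end of the barrel has a base, with a ring of Psmc ATPases that unfold the substrate, and a lid, which removes the ubiquitin chain. Immune signals replace the catalytic subunits by Psmb8 (in place of Psmb5), Psmb9 (Psmb6) and Psmb10 (Psmb7), and Psmb11 takes the place of Psmb5 in the cortex of the thymus. Spermatocytes and spermatids make a further alpha subunit, Psma8, which occupies the position of Psma7 in the ring and is needed for male meiosis in the mouse.

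The libraries held 25037235 to 30871330 counts in the IP and 22987974 to 30330450 in the input. The tables of the mutants listed fewer annotated genes above 0, with 12744 to 15024 in mutant IP against 19655 to 21880 in wild-type IP, and 15438 to 27002 in mutant input against 25319 to 27791 in wild-type input. Mutants 12 and 69 had the lowest numbers in the input. Of the 92 spike-in RNAs, which are not mouse genes, 43 to 54 were above 0 in mutant IP and 67 to 71 in wild-type IP. In the input these were 36 to 67 in the mutants, with 37 in mutant 12 and 36 in mutant 69, and 61 to 67 in the wild types. The cause of these lower numbers was not tested. Levels in CPM are counts per 1e6 of a library size scaled between the libraries of a fit (TMM). Adad2 itself averaged 9.39 ± 2.34 CPM in mutant IP and 102 ± 6.24 CPM in wild-type IP. In the input it averaged 8.19 ± 3.29 CPM in the mutants and 27.6 ± 3.06 CPM in the wild types (SD, n = 4 and 3). Markers of late pachytene spermatocytes, such as Ldhc and Pgk2, were lower in mutant input at an unadjusted p under 0.05 for 8 of 8 genes, with a sum of 2714 to 3583 CPM in the mutants and 4082 to 4792 CPM in the wild types, and none of them passed the adjusted test. In bulk RNA of this kind, fewer cells of a type and less RNA per cell cannot be told apart. From counts of cells by morphology, the study reported that mutants lost no cells before round spermatids.

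The core and cap genes were detected in every library, and the testis subunit Psma8 stood at the top of the alpha ring. At least 100 counts were present in every library for 35 of the 39 genes, the exceptions being Psmb8, Psmb9, Psmb10 and Psmb11. All 39 together took 0.812 to 0.896% of the counts in the IP and 0.387 to 0.467% in the input. Levels were compared between genes only in TPM, the RSEM measure of transcripts per length, which has a fixed sum in each library. The ATPase gene Psmc3 and the catalytic gene Psmb6 had the highest means of the 39 genes. Psmc3 came to 1055 ± 232 TPM in mutant IP, 1420 ± 102 TPM in wild-type IP, 318 ± 24.3 TPM in mutant input and 426 ± 33.3 TPM in wild-type input. Psmb6 came to 1075 ± 72.8 TPM in mutant IP, 1095 ± 24.3 TPM in wild-type IP, 161 ± 13.6 TPM in mutant input and 204 ± 15.03 TPM in wild-type input. Psmc3 was the first of the 6 ATPase genes and Psmb6 the first of the 7 constitutive beta genes in 14 of 14 libraries, and the catalytic Psmb7 was the second beta gene in all 14. The mean of Psmc3 in mutant IP was below that of Psmb6, by less than the spread of Psmc3 between the 4 mutants. Psmd2, a large scaffold protein of the base that binds ubiquitin-like domains, led the non-ATPase cap genes with 578 TPM in mutant IP, 566 TPM in wild-type IP, 144 TPM in mutant input and 162 TPM in wild-type input.

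The genes of a single ring differed widely in level, although the assembled particle holds each constitutive subunit of a ring in equal number. In wild-type IP, the other beta genes had means of 116 TPM (Psmb1) to 544 TPM (Psmb7) beside the 1095 TPM of Psmb6. Among the ATPase genes the means ran from 174 TPM for Psmc4 to 288 TPM for Psmc5 beside the 1420 TPM of Psmc3. These values sum all annotated transcripts of a gene. With protein-coding transcripts only, the ATPase means ran from 52.0 TPM for Psmc6 and 87.4 TPM for Psmc1 to 287 TPM for Psmc5, beside 1418 TPM for Psmc3. The chaperones of cap assembly were the lowest of the genes found in every library. In wild-type IP, Psmd10 (gankyrin) averaged 14.1 TPM, Psmd5 36.4 TPM and Psmd9 50.3 TPM. With protein-coding transcripts only, Psma3 lay below these chaperones there, at 4.74 TPM. The plot of TPM by gene gives these levels for each animal.

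**Figure D1:**
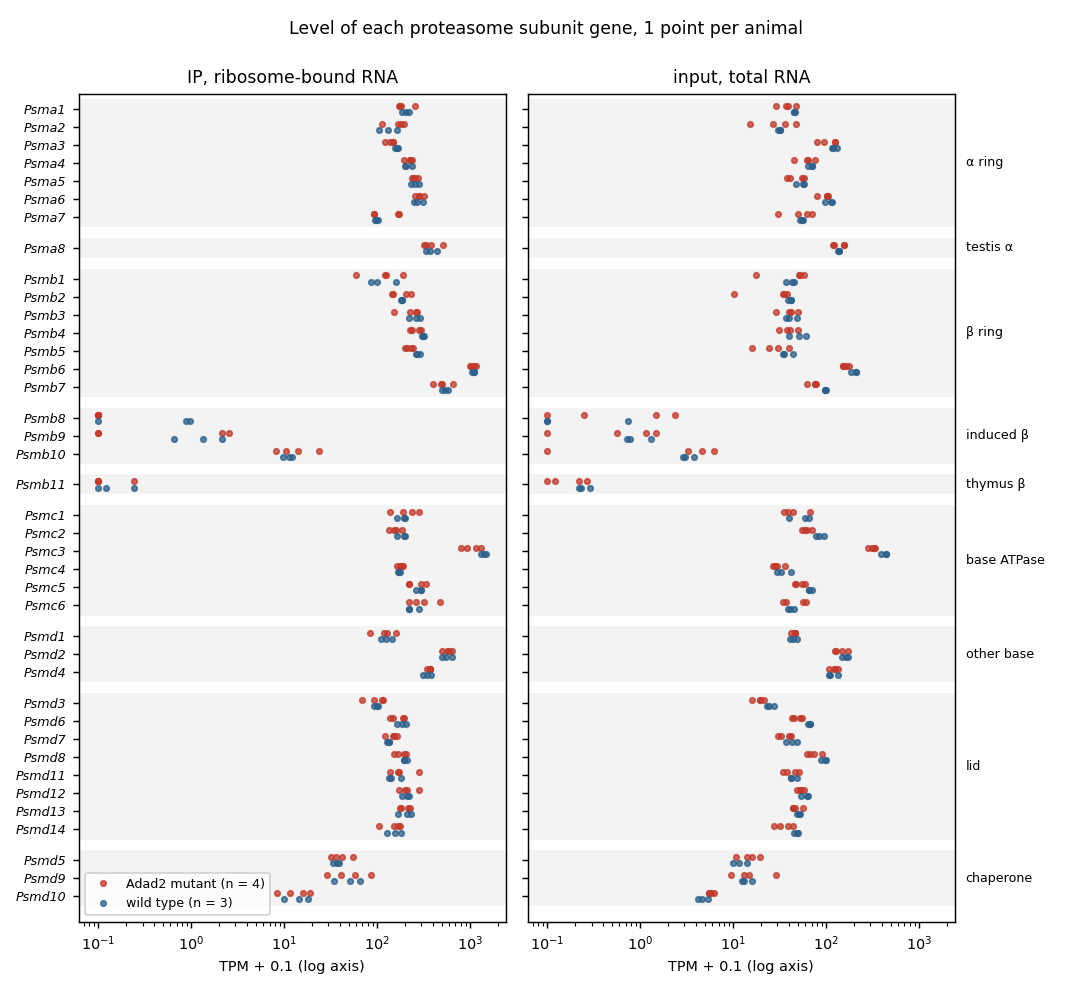
TPM of the 39 proteasome genes on a log axis (a pseudocount of 0.1 was added), with the IP in the left panel, the input in the right panel and 1 point for each mutant or wild-type animal. Psmc3 and Psmb6 lie above 1000 TPM on average in the IP of both genotypes, while Psmb8, Psmb9 and Psmb11 lie at the bottom in both fractions and Psmb10 lies beside Psmd10 above them.

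Psma8 was compared with Psma7, the subunit whose place it takes. Psma8 lies on chromosome 18 (14706151 to 14762301, plus strand, GRCm38) with 1 annotated transcript, and Psma7 on chromosome 2 (180036374 to 180042433, minus strand) with 7. The 2 genes can be told apart by these reads. The longest run of bases shared by their most used transcripts was 17. No window of 100 bases, the length of the trimmed reads, was common to the Psma8 transcript and any transcript of Psma7. In the IP, Psma8 had 516, 321, 335 and 384 TPM in mutants 12, 69, 93 and 94, and 370, 341 and 440 TPM in wild types 121, 140 and 17. In the input it had 118, 123, 156 and 156 TPM in the mutants and 138, 140 and 136 TPM in the wild types. Psma8 was above Psma7 in each of the 14 libraries, and the mutant and wild-type values overlapped in both fractions. Psma7 had 93.0, 172, 93.9 and 167 TPM in mutant IP against 98.7, 95.3 and 103 TPM in wild-type IP. Its input values were 49.98, 30.1, 62.5 and 70.4 TPM in the mutants and 52.2, 54.7 and 56.0 TPM in the wild types. Psma8 was the highest of the 8 alpha genes in 13 of 14 libraries, the exception being the input of mutant 12, in which Psma3 was above it. Psma8 made up 17.0 to 27.5% of the TPM of all alpha genes, while Psma7 ranked 5 to 8 among them.

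As a share of the TPM of both genes, Psma8 averaged 74.4 ± 8.76% in mutant IP and 79.4 ± 1.48% in wild-type IP, and 72.7 ± 5.15% in mutant input and 71.8 ± 0.905% in wild-type input (SD, n = 4 and 3). The difference between mutants and wild types was 0.971 percentage points in the input (two-sided exact permutation test over the 7 animals, p = 0.971) and -4.99 in the IP (exact p = 0.343), or -1.18 in the IP with protein-coding transcripts only and -1.88 without mutant 69. The smallest p that these 35 splits allow is 0.0286. Within animals, the share in the IP exceeded that in the input by 1.65 ± 12.6 points in the mutants and 7.61 ± 2.26 points in the wild types, and these did not differ beyond the spread (exact p = 0.6). The share was higher in the IP in 6 of 7 animals, by 4.20 points on average (exact sign-flip permutation test, p = 0.297). The exception was mutant 69, with 65.1% in the IP and 80.3% in the input. Without it, the gain was 7.45 points and the exact p was 0.0312. That is the smallest p this test allows with 6 animals. It was fixed once the only animal with a fall was left out, so no conclusion is drawn from it. Adjusted over the 4 tests of this share, the p-values were 0.971, 0.686, 0.8 and 0.686, and the value without mutant 69 adjusted to 0.125. Mutant 69 also had the lowest Psma7 level of all input libraries (30.1 TPM) and the highest of all IP libraries (172 TPM).

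**Figure D2:**
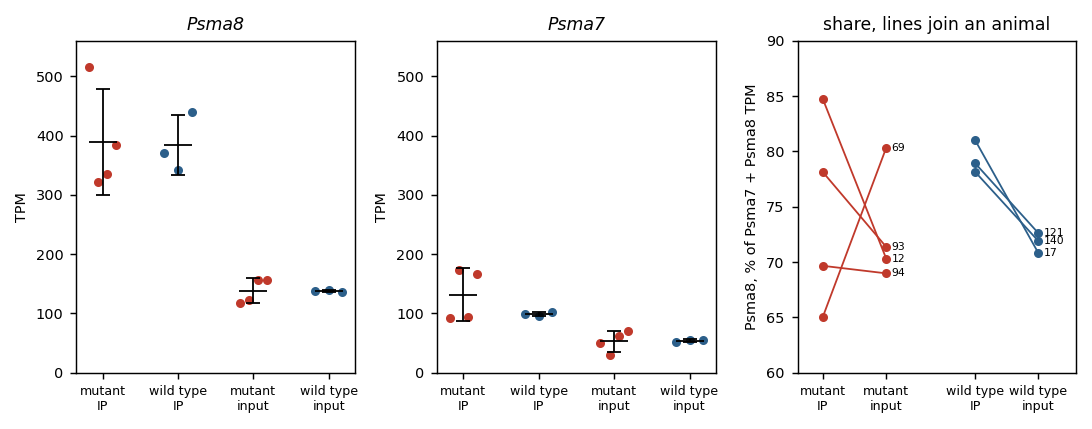
TPM of Psma8 and Psma7 in mutant IP, wild-type IP, mutant input and wild-type input (1 point per animal, with the mean and SD), and the share of Psma8 in the sum of both, with a line joining the 2 libraries of an animal. Psma8 lies above Psma7 in all 14 libraries, and the share line of mutant 69 is the only one that is lower in the IP, at 65.1% against 80.3% in the input.

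The induced catalytic subunits and the thymus subunit were near the limit of detection. Psmb8 had 0 counts in the IP of all 4 mutants and 0, 10 and 12 counts in wild-type IP, and its input counts were 4, 0, 32 and 68.2 in the mutants and 0, 14.2 and 0 in the wild types. A count of 0 allows up to 3 counts, or 0.0964 to 0.114 CPM in these mutant IP libraries, for counting error only. Psmb9 was listed with 57, 0, 0 and 61 counts in mutant IP and 13, 35 and 30 in wild-type IP. Psmb10, the most abundant of these genes, had 80, 117, 232 and 457 counts in mutant IP against 157, 89 and 171 in wild-type IP. Psmb8, Psmb9 and Psmb10 together made up 0.434 to 1.39% of the TPM of all 6 catalytic genes in the IP and 0.466 to 3.52% in the input. Psmb11 did not exceed 31.3 counts in any library. Beside these values, the summed level of 11 markers of macrophages and other leukocytes was 2.21 to 19.7 CPM in mutant IP and 9.01 to 24.1 CPM in wild-type IP, against 81.3 to 166 CPM in mutant input and 67.1 to 102 CPM in wild-type input. The markers Cd68, Lyz2, C1qc, Cd74 and H2-Aa were at 0 in all 4 mutant IP libraries, whereas none was at 0 in every library of the other groups. The part of these cells in the levels of Psmb8, Psmb9 and Psmb10 was not tested. The mutant IP libraries also had fewer genes and fewer spike-ins above 0, and the part of this in the zeros was not tested.

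The first question of the design was whether loss of ADAD2 altered the abundance of transcripts in the testis. No proteasome gene passed the adjusted test in the input. The core and cap genes differed by at most 0.35 in either direction on the log2 scale, with Psmc2 the lowest at -0.24 and Psmb1 the highest at 0.35 among the 31 constitutive core and cap genes. Psma8 had 293, 275, 378 and 367 CPM in mutant input against 253, 280 and 305 CPM in wild-type input, a log2 fold change of 0.23 ± 0.14 (SE, edgeR quasi-likelihood test, adjusted p = 1). The ranges overlapped, and on the log2(TPM + 1) scale the difference was -0.01. Psma7 had 61.1, 32.1, 74.97 and 76.8 CPM in the mutants and 45.8, 53.3 and 61.3 CPM in the wild types, and mutant 69 was the lowest of the 7.

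All 39 genes were tested in the input, and 0 were higher and 0 lower at an adjusted p under 0.05 in edgeR, beside 0.00547% and 0.00273% of all 36572 features. At an unadjusted p under 0.05 the counts were also 0 and 0, beside 1.6% and 4.76%. With RLE factors 3 genes were higher at that threshold (beside 2.23% of all features), and on the log2(TPM + 1) scale limma had 6 lower (beside 15.0%), so these counts depend on the scaling. DESeq2 called 1 gene, Psmd4, at a log2 fold change of 0.28 (adjusted p = 0.0447), and 0 lower, beside 0.962% of all features called higher by that tool and 2.16% lower. Psmd4 encodes the receptor of the base that captures ubiquitin chains. It had 198, 176, 201 and 191 CPM in the mutants and 159, 160 and 176 CPM in the wild types, so that each mutant exceeded every wild type. The mutants and wild types also did not overlap for the chaperone Psmd10, with 11.1, 11.4, 11.6 and 10.6 CPM in mutants against 6.76, 6.71 and 9.73 CPM in wild types. Such a separation upwards was found for 2.57% of all features and downwards for 11.3%, and no proteasome gene had it downwards. The median of the 39 genes was 0.00 beside -0.18 over all features. Under a minimum of 10 counts in every library, which 35 of the genes met, both medians were 0.03.

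The genes with the smallest p in each direction are given next, although none passed the adjusted test. On the positive side were Psmd4 (log2 fold change 0.22 ± 0.10), Psmd1, the large scaffold of the base (0.22 ± 0.10), and Psma8. On the negative side were the lid gene Psmd8 (-0.23 ± 0.10), the ATPase gene Psmc2 (-0.24 ± 0.13) and Psmc3 (-0.16 ± 0.12). The lowest adjusted p of the 39 genes in edgeR was 0.798, that of Psmd4. The catalytic genes were at -0.24 ± 0.34 (Psmb5), -0.10 ± 0.14 (Psmb6) and -0.17 ± 0.15 (Psmb7). Above 0 were 20 of the 39 genes, beside 39.8% of all features, but 7 of 39 on the log2(TPM + 1) scale, so no direction can be given for the family.

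The same comparison in the IP asked whether the RNA on germ cell ribosomes differed. Again none of the 37 genes tested passed the adjusted test, and the constitutive genes lay between -0.37 (Psmb4) and 0.24 (Psma2). Psma8 was at 0.03 ± 0.14 in this comparison, with 581, 390.2, 436 and 489 CPM in mutant IP against 461, 444 and 490.1 CPM in wild-type IP. The mutants lay on both sides of the wild types. Psma7 was at 0.18 ± 0.19, with 51.4, 82.3, 61.3 and 74.4 CPM in the mutants and 60.4, 61.1 and 56.4 CPM in the wild types.

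By edgeR 0 genes were called in either direction, beside 0.00382% of 26186 features in each. Before adjustment 3 genes were lower and 0 higher at p under 0.05, beside 10.3% and 1.34% of all features. DESeq2 called 0, beside 1.63% of all features higher and 7.94% lower. The 3 genes were Psmb4, Psmc3 and Psma3. Psmb4, a non-catalytic beta subunit, had 171, 179.9, 147 and 154 CPM in mutant IP and 229.5, 215 and 187 CPM in wild-type IP, so that each mutant was below every wild type. Its log2 fold change was -0.37 ± 0.12 (edgeR adjusted p = 0.189). Psmc3 had 1099, 1317, 1034 and 936 CPM in the mutants against 1537, 1396 and 1304 CPM in the wild types, where mutant 69 exceeded wild type 17. Its log2 fold change was -0.37 ± 0.13 (edgeR adjusted p = 0.236). Psma3 was at -0.30 ± 0.12 (edgeR adjusted p = 0.336) with no overlap between the genotypes, and its counts are shared with a copy described below. Groups without overlap, mutants lower, were found for 14.5% of all features, and for 2 of the 37 proteasome genes, while mutants higher without overlap were found for 1.96% of all features and 0 of the 37.

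The positive end held Psmc6 (0.19 ± 0.11), Psmd5 (0.28 ± 0.22) and Psmd7, a lid subunit (0.16 ± 0.13), none of them at an unadjusted p under 0.05. The catalytic genes were at -0.27 ± 0.15 (Psmb5), -0.01 ± 0.11 (Psmb6) and -0.07 ± 0.12 (Psmb7). In the IP 15 of 37 genes were above 0, beside 41.0% of all features, or 26 of 37 with the RLE factors of edgeR, which moved the median of all features from -0.15 to -0.05. Late pachytene markers moved beside these values, with a sum of 4089 to 4548 CPM in mutant IP and 5866 to 6719 CPM in wild-type IP, as did markers of round spermatids, with 116 to 179 CPM in mutant IP and 224 to 253 CPM in wild-type IP. The part of both in the values of Psmb4, Psmc3 and Psma3 was not tested.

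**Figure D3:**
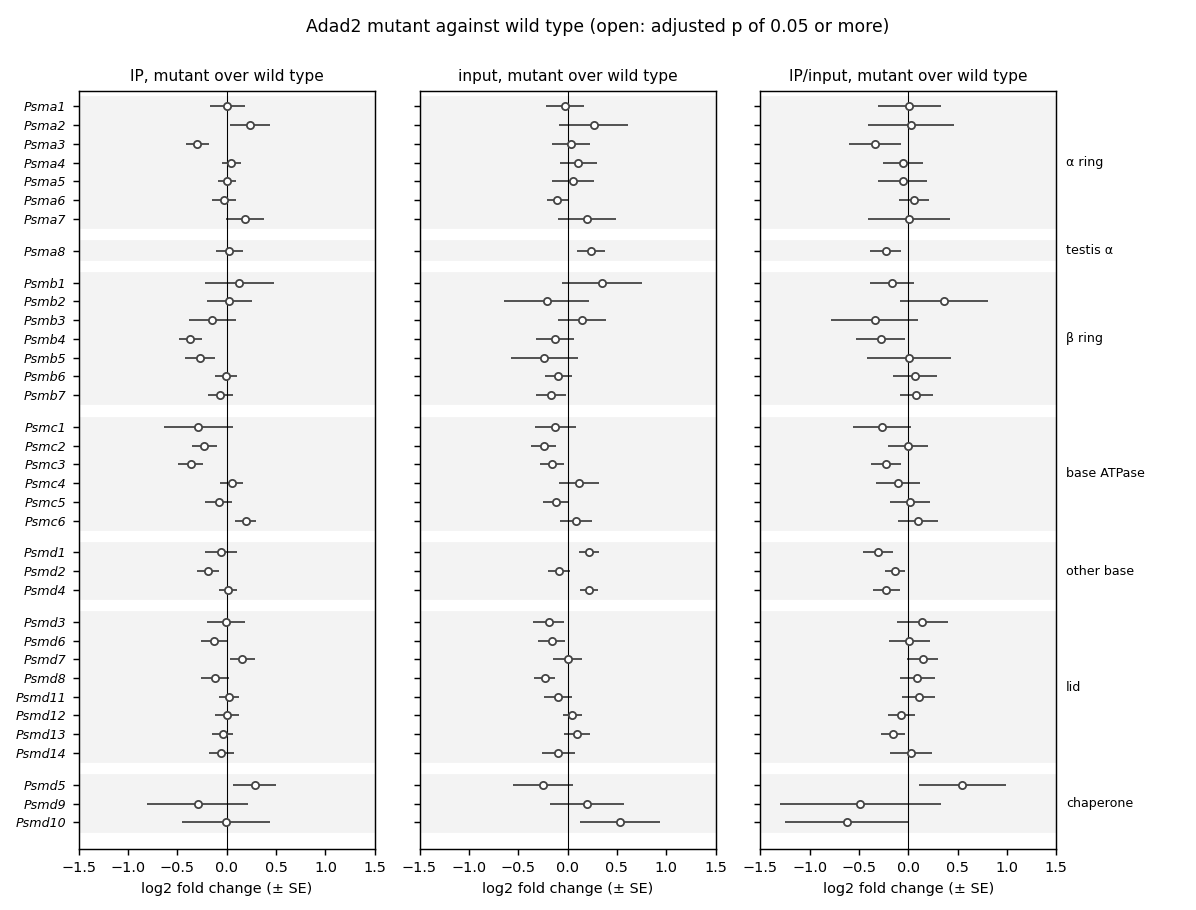
Log2 fold change of mutant over wild type (± SE) for each proteasome gene in the IP, in the input and in the ratio of IP to input. No gene passed an adjusted p of 0.05 in any of these, and the points of the constitutive genes scatter on both sides of 0.

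The second axis of the design was the IP against the input within an animal, the measure of ribosome association in these germ cells. Most proteasome transcripts were higher in the IP in both genotypes, and the beta ring had the largest ratios. In the mutants, 22 of the 37 genes tested were higher in the IP and 0 lower (59.5%), beside 6.35% higher and 3.56% lower of all 22918 features and 9.78% higher of the protein-coding genes. In the wild types, 31 of 39 were higher and 0 lower (79.5%), beside 13.0% higher and 6.37% lower of all 34864 features and 24.8% higher of the protein-coding genes. These are calls of edgeR with the animal as a block. DESeq2 also passed Psma2, Psma6, Psma8, Psmb1, Psmd1, Psmd5 and Psmd8 as higher in the mutants (DESeq2 adjusted p of 0.000926 to 0.0369). It called Psma3 lower there, at -0.72 (DESeq2 adjusted p = 0.00345). In the wild types it also passed Psma7, Psmb10, Psmd9 and Psmd10 (DESeq2 adjusted p of 3.0e-06 to 0.0342). The shares of all features called by DESeq2 in these fits are not given here. The IP exceeded the input in every animal for 31 of the 37 genes in the mutants (beside 17.0% of all features) and for 35 of the 39 in the wild types (beside 26.6%).

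The median log2 ratio of the proteasome genes was 1.02 in the mutants and 1.28 in the wild types, against -0.63 and -0.60 over all features. On the log2(TPM + 1) scale the median of all features was 0.32 in the mutants and 0.01 in the wild types. Relative to the median of all features, the proteasome genes were at 1.65 in the mutants and 1.88 in the wild types by CPM, and at 1.67 in the mutants and 1.73 in the wild types by TPM. This distance depends on the features kept. Under a minimum of 10 counts in every library it was 0.875 in the mutants and 1.19 in the wild types by CPM. The wild-type calls rest on 3 animals. Without wild type 121 or without wild type 140 none of the 31 calls was left, while 32 genes had an unadjusted p under 0.05 each time (34 with all animals, beside 18.5% of all features), and without wild type 17 there were 29 calls. In the mutants the calls were 12 without mutant 93, 13 without mutant 94 and 17 without mutant 12 or mutant 69. Without both mutants 12 and 69, the libraries with the fewest genes detected in the input, 0 calls were left on 2 animals, and the median was 0.83. The shares of all features called in these reduced fits are not given here. So these numbers do not show whether the proteasome genes lost calls more often than other features. On the log2(TPM + 1) scale limma called 34 of the 37 genes in the mutants, beside 22.7% of all features.

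The ring of beta subunits led. In the mutants the 7 constitutive beta genes had a median log2 ratio of 1.80 with 6 called, and in the wild types 2.06 with 7 called. Psmb5, the chymotrypsin-like subunit, had 110.1, 125, 170.3 and 159 CPM in mutant IP against 50.3, 18.2, 29.1 and 34.8 CPM in mutant input (log2 ratio 2.17 ± 0.31, edgeR adjusted p = 0.0102). In the wild types it had 193, 169 and 156 CPM in the IP and 26.3, 28.4 and 40.2 CPM in the input (2.47 ± 0.22, edgeR adjusted p = 0.00804). No IP value overlapped an input value, and mutant 12 had the smallest gap. Psmb6, the caspase-like subunit, had 488, 590.1, 599 and 652 CPM in mutant IP against 198, 149.8, 157 and 164 CPM in mutant input (1.80 ± 0.15). Its wild-type values were 634, 621 and 533 CPM in the IP and 136, 132 and 167 CPM in the input (2.04 ± 0.15). Psmb7, the trypsin-like subunit, was at 1.84 ± 0.13 in the mutants and 2.06 ± 0.12 in the wild types. Psmb4 had 174, 179.9, 161 and 169.7 CPM in mutant IP against 61.2, 49.3, 50.4 and 57.7 CPM in mutant input (1.65 ± 0.14). The exception in the mutants by edgeR was Psmb1, at 0.54 ± 0.16 (edgeR adjusted p = 0.111, DESeq2 adjusted p = 0.0129). It passed in the wild types at 1.02 ± 0.18.

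The alpha ring had smaller ratios. Its 7 genes Psma1 to Psma7 had a median of 0.92 with 3 called in the mutants, and of 1.28 with 5 called in the wild types. The called genes in the mutants were Psma1, Psma4 and Psma5, and Psma5 was the highest of the ring at 1.49 ± 0.19 in the mutants and 1.85 ± 0.11 in the wild types. Psma8 had 589, 390.3, 477 and 539.6 CPM in mutant IP against 312, 292, 391 and 379 CPM in mutant input. The groups overlapped by the IP value of mutant 69, and the log2 ratio was 0.53 ± 0.13 (edgeR adjusted p = 0.0554). In the wild types Psma8 had 513, 457 and 529 CPM in the IP and 216, 241 and 258 CPM in the input, with a log2 ratio of 1.07 ± 0.10 (edgeR adjusted p = 0.00818). In edgeR Psma7 did not pass in either genotype, at 0.19 ± 0.31 in the mutants and 0.49 ± 0.14 in the wild types (edgeR adjusted p = 0.761 and 0.104). DESeq2 called Psma7 in the wild types (DESeq2 adjusted p = 0.00576). Without the animal as a block, Psma8 passed in the mutants (adjusted p = 0.0461) and Psma7 in the wild types (adjusted p = 0.0349), and Psma2 and Psma6 also passed in the mutants (adjusted p = 0.0332 and 0.03). Psma7 had 52.1, 82.3, 67.1 and 82.2 CPM in mutant IP against 65.1, 34.1, 77.6 and 79.2 CPM in mutant input, where the IP was below the input in mutants 12 and 93.

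The cap genes lay nearer to the alpha ring than to the beta ring. The 6 ATPase genes had a median of 1.01 with 4 called in the mutants and of 1.38 with 6 called in the wild types. Psmc4 was the highest of them (1.54 ± 0.15 in the mutants and 1.96 ± 0.16 in the wild types) and Psmc2 the lowest (0.35 ± 0.16 and not called in the mutants, 0.66 ± 0.09 and called in the wild types). The 3 base genes beyond the ATPases had a median below that of the alpha ring, at 0.54 with 2 called in the mutants and 1.10 with 3 called in the wild types. Of these, Psmd2 had 1325, 1079, 1043 and 1161 CPM in mutant IP against 619, 539.7, 586 and 629 CPM in mutant input (0.95 ± 0.08). Its wild-type values were 1413, 1223 and 1406 CPM in the IP and 496, 465 and 578 CPM in the input (1.40 ± 0.08). Psmd1 and Psmd4 were at 0.48 ± 0.12 and 0.54 ± 0.11 in the mutants, of which only Psmd4 was called, and at 1.10 ± 0.09 and 1.07 ± 0.10 in the wild types, both called.

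The lid genes had a median of 1.03 with 7 of 8 called in the mutants and of 1.29 with 8 of 8 called in the wild types. Psmd11, a lid scaffold, was among the genes with the smallest p in the wild types, with 202, 182, 181 and 192 CPM in mutant IP against 88.3, 75.4, 105 and 85.9 CPM in mutant input, and 194, 178 and 200.2 CPM in wild-type IP against 77.8, 72.3 and 80.6 CPM in wild-type input. Psmd14, the deubiquitinase of the lid, was at 1.04 ± 0.17 in the mutants and 1.32 ± 0.08 in the wild types. The lid gene that did not pass in the mutants by edgeR was Psmd8, at 0.48 ± 0.15 (edgeR adjusted p = 0.123, or 0.0497 without the animal as a block). Its DESeq2 adjusted p was 0.0369. The chaperones had medians of 0.25 in the mutants, with none of 3 called, and 1.18 in the wild types, with only Psmd5 called (1.27 ± 0.17). Without the animal as a block, Psmd5 also passed in the mutants (adjusted p = 0.0103) and Psmd10 in the wild types (adjusted p = 0.0269). Psmd9 ranged from 17.3 to 52.6 CPM in mutant IP and from 13.6 to 45.2 CPM in mutant input.

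The cell types of the 2 fractions differed beside these ratios. Summed over 10 markers, Sertoli cell RNA came to 188 to 335 CPM in mutant IP against 1251 to 1593 CPM in mutant input, and to 253 to 423 CPM in wild-type IP against 834 to 1000.0 CPM in wild-type input, with 3 markers lower in the mutants and 8 in the wild types. Markers of early meiotic cells came to 2460 to 2851 CPM in mutant IP against 988 to 1347 CPM in mutant input, and to 2478 to 3101 CPM in wild-type IP against 968 to 1052 CPM in wild-type input. Markers of round spermatids went the other way, with 117 to 179 CPM in mutant IP against 300.2 to 406.5 CPM in mutant input, and 230.1 to 282 CPM in wild-type IP against 511 to 602.5 CPM in wild-type input. Markers of spermatogonia came to 547 to 946 CPM in mutant IP against 80.5 to 187.5 CPM in mutant input. Their wild-type sums were 488.5 to 653 CPM in the IP and 84.7 to 103 CPM in the input. Late pachytene markers were divided, with 2 of 8 higher and 3 lower in mutant IP, and 3 higher and 4 lower in wild-type IP. Their sum was nevertheless higher in the IP in both genotypes. The part of the cell mixture in the ratios of the proteasome genes was not tested.

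Psma3 stood apart from the other alpha genes, at -0.59 ± 0.20 in the mutants (edgeR adjusted p = 0.152, DESeq2 adjusted p = 0.00345) and 0.05 ± 0.12 in the wild types. Its transcripts are matched by a processed pseudogene, Gm13835, on chromosome 6 (chr6:31141979-31142663, minus strand, GRCm38), a copy without introns of the gene on chromosome 12 (chr12:70974621-70996347, plus strand). The 685 bases of Gm13835 were all contained in the transcript Psma3-204, and in the most used transcript, Psma3-201, the longest common run was 661 bases. A part of each is printed here because a read from the shared part can be assigned to either gene. Psma3-201 is annotated as a transcript of nonsense-mediated decay, and the first line holds all 120 coding bases annotated for it. The second line is the start of Gm13835, and capitals mark runs of at least 16 bases found in the other.
Psma3-201: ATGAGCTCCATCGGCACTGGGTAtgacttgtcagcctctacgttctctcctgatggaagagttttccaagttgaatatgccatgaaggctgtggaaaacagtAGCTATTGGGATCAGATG
Gm13835: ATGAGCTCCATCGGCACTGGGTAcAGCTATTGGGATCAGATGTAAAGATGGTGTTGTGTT
The lower-case stretch of Psma3-201 is missing from this window of the pseudogene, in which the capitals on either side of it are separated by 1 base.

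The assignment to the pseudogene differed between the fractions. Gm13835 took 58.1, 30.9, 53.9 and 35.6% of the counts of both in mutant IP and 39.6, 43.7 and 48.2% in wild-type IP. In the input it took 0, 0.698, 0 and 12.6% in the mutants and 5.55, 0.903 and 1.27% in the wild types. Each IP share was above every input share. When the counts of Psma3 and Gm13835 were summed, the log2 ratio of IP to input was 0.24 in the mutants (edgeR adjusted p = 0.282) and 0.85 ± 0.09 in the wild types (edgeR adjusted p = 0.0097), within the range of the other alpha genes in the wild types. The cause of the different assignment was not tested, and levels of Psma3 alone are uncertain. Most of its counts also lay in transcripts not annotated as protein coding, and with the protein-coding ones alone the difference of mutants from wild types in the IP turned to 1.18 ± 2.01. That value rests on mutant 94, with 1594 protein-coding counts in the IP against 0 to 110 in the other 3 mutants and 54.7 to 230.0 in the wild types, and without this animal it was -2.13 ± 1.97.

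**Figure D4:**
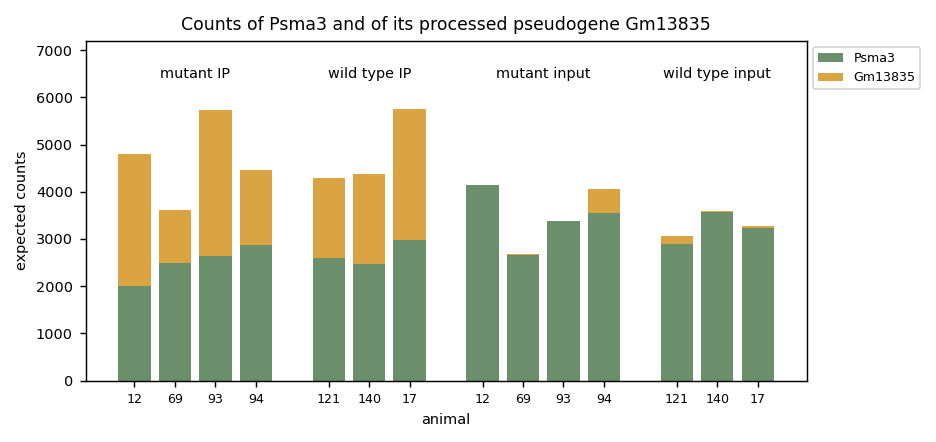
Counts assigned to Psma3 and to its processed pseudogene Gm13835, stacked, in the mutant and wild-type libraries of each fraction. In the IP the pseudogene holds 30.9 to 58.1% of the sum, and in the input at most 12.6%.

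A smaller part of other transcripts was shared with further loci. Of the windows of 100 bases in the main transcript, matched on either strand, 27.5% were shared for Psma5, 24.9% for Psmb5 and 20.0% for Psmb7. Next came Psmb3 (18.0%), Psmd11 (15.5%) and Psmd13 (12.9%). The values of these genes carry the uncertainty of shared reads. For Psmb7 and Psmd13 the other gene (Nek6 and Sirt3) lies on the opposite strand, so it depends on the strand setting of RSEM, which was not given.

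The largest ratios were those of Psmb5 and the neighbours of its ring, and the promoters of the family were read for short motifs. The antioxidant response element is a site known for the transcription factor Nfe2l1, which raises proteasome genes when the protease is inhibited. RefSeq promoters (GRCm38.p6, 250 bases before to 50 after the start) could be matched for 32 of the 39 genes. The letters TGACNNNGC, on either strand, were present in 5 of the 32 (15.6%), beside 13.99% of all 27025 genes with a promoter. These were Psmb5, Psmb6, Psmc6, Psmd9 and Psmd12. The windows below are the 150 bases before the start of those genes in which the motif lay wholly within that stretch, and capitals mark it. In Psmc6 and Psmd12 it lay further upstream, at -227 and -247.
Psmb5, chr14:54617996-54618145, minus strand: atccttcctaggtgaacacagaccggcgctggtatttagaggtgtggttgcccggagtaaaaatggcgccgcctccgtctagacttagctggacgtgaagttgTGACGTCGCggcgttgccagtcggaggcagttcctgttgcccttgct
Psmb6, chr11:70525207-70525356, plus strand: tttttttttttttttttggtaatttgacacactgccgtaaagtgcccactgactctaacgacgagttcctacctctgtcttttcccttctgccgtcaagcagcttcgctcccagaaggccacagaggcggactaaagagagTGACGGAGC
Psmd9, chr5:123228040-123228189, plus strand: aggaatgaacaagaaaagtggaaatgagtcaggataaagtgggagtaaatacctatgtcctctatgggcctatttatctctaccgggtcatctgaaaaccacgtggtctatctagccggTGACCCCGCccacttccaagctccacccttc
CCAAT was present in 13 of the 32 (40.6%, beside 41.1%) and TAACNG in 6 (18.8%, beside 25.9%), on either strand. These matches are descriptions of the letters and name no bound factor.

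Finally, the ratio of IP to input was compared between the genotypes, which asks whether ribosome association changed in the mutant beyond any change of abundance. No proteasome gene did so by the adjusted test. The interaction of fraction and genotype was fitted for the 35 genes above 0 in each input library, and 0 were higher and 0 lower in edgeR, beside 0.0% of the 16014 features in each direction. The count was also 0 at an unadjusted p under 0.05 (0.475% higher and 6.74% lower over all features) and 0 in DESeq2 (0.212% and 5.9%). The study's measure, an unequal-variance test of IP TPM over input TPM with an unadjusted p, called 1 gene, Psmb6, at 0.31, beside 2.04% of all features called higher. For Psma8 the ratio of IP to input was 1.83, 1.35, 1.18 and 1.37 in the mutants and 1.77, 1.57 and 1.64 in wild types 121, 140 and 17, on the scale of the fit with all groups. The mutant values spread over those of the wild types, and the interaction was -0.23 ± 0.16 on the log2 scale (edgeR adjusted p = 0.886).

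The lowest p belonged to Psmd1, with ratios of 1.46, 1.55, 1.09 and 1.42 in the mutants and 1.69, 1.58 and 1.83 in the wild types. Each mutant was below every wild type, and the interaction was -0.31 ± 0.15 (unadjusted p = 0.0773). The lid gene Psmd13 was separated in the same way, with 1.85 to 2.06 in the mutants and 2.10 to 2.33 in the wild types (-0.16 ± 0.12). A separation of this kind was found for 8.65% of all features, and the opposite one for 1.26% and for none of the 35 genes. Next on the negative side were Psmd4 (-0.22 ± 0.14) and Psmc3 (-0.23 ± 0.15). On the positive side were Psmd5 (0.55 ± 0.44), Psmd7 (0.15 ± 0.16) and Psmb2 (0.36 ± 0.45), for which mutant 69 alone reached ratios of 5.71 for Psmd5 and 7.53 for Psmb2. The catalytic genes were at 0.01 ± 0.42 (Psmb5), 0.07 ± 0.22 (Psmb6) and 0.08 ± 0.17 (Psmb7), and Psma7 at 0.01 ± 0.41. Above 0 were 17 of the 35 genes, beside 30.2% of all features, or 28 of 35 on the log2(TPM + 1) scale, and the median was 0.00 beside -0.29 over all features. Under a minimum of 10 counts in every library, 21 of the 35 genes were above 0 and the median was 0.08 beside 0.02. With 1 animal left out, 0 to 3 genes were lower and 0 higher at an unadjusted p under 0.05, and the median lay between -0.25 and 0.01, while that of all features lay between -0.47 and -0.29. The 3 genes, without wild type 17, were Psmb4, Psmc3 and Psmd2 (beside 4.46% of all features lower), and Psmd1 was below that threshold without wild type 140, mutant 69 or mutant 93, and Psma8 without mutant 12. The separate fits of the mutants and of the wild types are not on 1 scale.

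Genes that act with the proteasome were read in the same fits, from lists of activators, assembly factors, cap-associated proteins, ubiquitin genes, shuttles, regulators and antigen processing. Between mutant and wild-type input 0 of 44 were called by edgeR and 4 by DESeq2, and an unadjusted edgeR p below 0.05 was found for 9 of them (3 higher, 6 lower). Over all features DESeq2 called 0.962% higher and 2.16% lower, and the unadjusted shares were 1.6% and 4.76%. Between mutant and wild-type IP 0 of 42 were called by edgeR and 5 by DESeq2, with 5 below that unadjusted value (3 higher, 2 lower). The shares of all features were 1.63% higher and 7.94% lower in DESeq2, and 1.34% and 10.3% unadjusted. Among the genes below the unadjusted value in the input was Psme4 (PA200), the activator that caps the core in spermatids and takes part in the degradation of acetylated histones. It had 549, 518, 527 and 516 CPM in mutant input against 759, 688 and 756 CPM in wild-type input. Each mutant was below every wild type, with a log2 fold change of -0.48 ± 0.07 (edgeR unadjusted p = 0.000225, adjusted p = 0.284), and DESeq2 called it at -0.41. In the IP Psme4 had 397, 347, 234 and 186 CPM in the mutants and 476, 366 and 464 CPM in the wild types, with mutant 12 above wild type 140. Its level moved beside the late pachytene markers and beside 11 markers of round spermatids, which came to 291 to 381 CPM in mutant input against 594 to 712 CPM in wild-type input (11 of 11 below 0, median log2 fold change -1.23). The part of these cells in it was not tested.

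Between IP and input, 11 of the 43 related genes tested were higher and 2 lower in the mutants, and 21 of 44 were higher and 1 lower in the wild types. Over all features these shares were 6.35% higher and 3.56% lower in the mutants, and 13.0% and 6.37% in the wild types. The activator Psme3 was at 1.17 ± 0.17 in the mutants and 1.52 ± 0.10 in the wild types, and Pomp, which matures the core, at 1.09 ± 0.17 and 1.41 ± 0.12. The ubiquitin gene Rps27a was at 1.37 ± 0.13 in the mutants and 1.76 ± 0.09 in the wild types. The cap component Sem1 was at 0.96 ± 0.13 in the mutants and 1.51 ± 0.08 in the wild types, and the segregase Vcp at 1.16 ± 0.08 and 1.74 ± 0.09. The antigen-presenting H2-K1 was at 0.81 ± 0.13 in the mutants and 1.42 ± 0.09 in the wild types. Nfe2l1 was at 0.31 ± 0.17 in the mutants, without a call, and 0.73 ± 0.08 in the wild types, with one, and the interaction of fraction and genotype did not pass (-0.12 ± 0.21, edgeR adjusted p = 0.96). Lower in the IP were Psme4 in the mutants (-0.92 ± 0.16, and -0.43 ± 0.10 without a call in the wild types) and Ngly1, the enzyme that activates Nfe2l1, in both (-0.79 ± 0.16 in the mutants and -0.47 ± 0.08 in the wild types). The ratios of Ngly1 turned to 0.55 in the mutants and 0.07 in the wild types on the log2(TPM + 1) scale, and that of Psme4 in the mutants was near 0 on it.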

How the data were processed

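Testis RNA of 7 animals was sequenced as HA-immunoprecipitated RNA and as total RNA (TruSeq Stranded libraries after depletion of ribosomal RNA). The authors removed remaining ribosomal reads, trimmed reads to 100 bases and ran RSEM 1.3.3 on Ensembl transcripts of GRCm38 and transcripts assembled from testis; its strand setting was not given in the sources used here. The deposited expected counts are the estimates of RSEM per transcript, unnormalized, and the deposited TPM are its values per length, scaled to 1 sum in each library. Reads that match several transcripts were divided by RSEM, so copies share counts.

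Expected counts and TPM of Ensembl transcripts were summed per GENCODE M21 symbol (133445 of 133849 transcripts matched). Assembled transcripts were tested as single features, so assembled forms of proteasome genes are not in their sums, and 92 spike-ins were left out. Rounded counts were tested with edgeR 4.0.16 (R 4.3.3; TMM, filterByExpr, robust quasi-likelihood), with Benjamini-Hochberg adjustment over all features at 0.05. CPM use the TMM-scaled library sizes of the fit in question, so values of a library differ between comparisons. EBSeq, used by the study for the input, was not run. IP and input of an animal carry 1 number in the labels, and the animal was a block in those fits. Deviations of its 2 libraries from their group means correlated at 0.002 to 0.208 over 9773 features. Genotypes share no animal. The share of Psma8 was tested by exact permutation of animals. Scripts were tested on simulated data.

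Described one by one were Psma7, Psma8, the catalytic genes and their induced counterparts, Psmb11, and in each comparison the 3 genes with the smallest p in each direction; others were named after their values were seen. Of the lists of related genes, those called or with the smallest p were named. A gene of these lists is not reported here and is not in their counts. Members and lists were chosen with earlier results of these data known. Nothing states whether a group's animals shared a litter, so p-values measure the spread between these samples. Alternatives were DESeq2 1.42.0, RLE factors, other filters, limma 3.58.1 on log2(TPM + 1) and log2(TPM + 0.1), protein-coding transcripts only, no block, and each animal left out; leaving out mutants 12 and 69 together, leaving out mutant 94 with protein-coding transcripts only, and summing Psma3 with Gm13835 were added after seeing the data. Depth was 22987974 to 30871330 counts per library, and intervals on low counts would cover counting error only.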

Additional observations from a re-analysis of the deposited data

Results flagged for a closer look

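Among the values of the 39 proteasome genes in the groups of 4 mutants, 77 gene and fraction combinations with a count above 0 were examined for a sample far from the others, and 2 met Dixon's criterion, which chance meets in about 1 of 20 groups. The beta-ring gene Psmb2 had 10.4 CPM in the input of mutant 69, while the other 3 mutants had 38.0 to 39.8 CPM. The thymus gene Psmb11 had 0.418 CPM in the IP of mutant 12, from 11 counts, and 0 in the other 3 mutants. With those 3 at 0 any count above 0 meets the criterion, so the chance rate above does not apply to it. The part of the lower number of genes detected in mutants 12 and 69 in these values was not tested.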

How the results depend on the processing

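The absence of adjusted calls between mutants and wild types held for the proteasome genes under the settings run, with 2 exceptions: DESeq2 called 1 gene in the input, and the unequal-variance test of TPM ratios, unadjusted, called 1 gene. Between IP and input, the number called by edgeR ranged from 12 to 17 in the mutants and from 0 to 29 in the wild types when 1 animal was left out. With all animals, DESeq2 called further genes in both genotypes, and it called Psma3 lower in the mutants (DESeq2 adjusted p = 0.00345). In the mutants it was 34 on the log2(TPM + 1) scale and 0 without mutants 12 and 69, a fit of 2 animals. Fits with animals left out rest on fewer samples. The shares of all features called in them, and in the fits without the block, are not given here. Without the replicate block, which pairs the IP and input of an animal, 27 genes were called in the mutants, 33 in the wild types and 0 in the interaction. Fitted without that block, Psma2, Psma6, Psma8, Psmd5 and Psmd8 passed in the mutants and Psma7 and Psmd10 in the wild types, Ngly1 no longer passed in either (-0.75 and -0.46), and the interactions of Psma7 and Psmb5 turned to -0.0155 and -0.059. Of the related genes, 2 more passed in the mutants and 8 more in the wild types. No other proteasome gene changed its call with it.

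With 1 animal left out, the share of Psma8 differed between mutants and wild types by -1.56 to 2.23 points in the input and -8.44 to -1.88 in the IP, its gain in the IP differed by -10.2 to -0.32, and the gain over all animals was 2.50 to 7.45 points. Reversed values had no adjusted call except those of Ngly1, and the cause was not tested. On the log2(TPM + 1) and log2(TPM + 0.1) scales the input difference was -0.0936 and -0.0966 for Psma7 and -0.0077 and -0.0078 for Psma8. On these scales the IP ratio was 0.41 and 0.41 for Psma3 and 0.55 and 0.56 for Ngly1 in the mutants, and 0.07 and 0.08 for Ngly1 in the wild types (0.0743 and 0.075). The interaction on them was 0.0099 and 0.0099 for Psma8, -0.15 and -0.16 for Psmd5, and 0.001 and 0.0006 for Psmd4, and by the unequal-variance test it was 0.06 for Psma8 (0.0554), -0.11 for Psmd5, 0.0057 for Psmd4 and 0.0377 for Psma3. In the IP, RLE factors, DESeq2 and a minimum of 10 counts gave 0.0972, 0.0973 and 0.094 for Psmb6 and 0.0397, 0.0396 and 0.0356 for Psmb7, and that minimum gave -0.12 for Psma3 in wild-type IP over input. With protein-coding transcripts only, the IP difference was -0.12 for Psmc6, -0.76 for Psmd5 and 1.18 for Psma3 (-0.10, -0.87 and -2.13 without mutant 94, a setting chosen after seeing the data), the wild-type IP ratio of Psma3 -1.68, and the interaction -0.0379 for Psma7 and -0.62 for Psmd5. Without mutants 12 and 69, values were -0.0249 for Psma8 and 0.0173 for Psmb6 in the IP, -0.14 for the mutant IP ratio of Psma7, and -0.35 for Psma7, -0.15 for Psmb7 and -0.04 for Psmd7 in the interaction. Summed with Gm13835, the mutant IP ratio of Psma3 was 0.24.

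With 1 animal left out, the range was -0.18 to 0.03 (0.0272) for Psmb6 in the input. In the IP it was -0.0834 to 0.11 for Psma8, -0.0814 to 0.0533 for Psmb6 and -0.16 to 0.0151 for Psmb7. For IP over input it was -0.0764 to 0.11 for Psma3 in the wild types and -0.17 to 0.36 for Psma7 in the mutants. In the interaction it was -0.39 to 0.16 for Psma7, -0.36 to 0.32 for Psmb5, -0.23 to 0.21 for Psmb6, -0.12 to 0.16 for Psmb7, -0.002 to 0.21 for Psmd7 and -0.0356 to 0.66 for Psmb2. Depth limits the 4 genes with under 100 counts in some library, Psmb8, Psmb9, Psmb10 and Psmb11, whose fold changes had errors above 0.4 on the log2 scale.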
